A study of Mus musculus with 7 samples.

Results

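Noncoding RNA (ncRNA) loci of the adult mouse left atrium were examined beside 6 genes of the contractile apparatus, namely *Tnnt2*, *Tnni1*, *Mybpc3*, *Myom1*, *Xirp2* and the muscle kinase gene *Mylk4*. A locus was taken where a deposited gene column, either of neighbouring genes or of linked genes, held the name of a member, and 14 of the 1489 loci of the list did. A linked gene is one that the list carries in a separate column, which the authors filled with nearby left atrial genes of changed expression. The study compared 4 *Tbx5* knockout libraries with 3 control libraries, all from the left atrium of male mice of mixed background at 6 to 8 weeks of age. Knockout mice carried floxed *Tbx5* alleles and *R26* CreERt2, a Cre that tamoxifen activates and that the *R26* promoter drives in all tissues, so deletion was not limited to heart muscle cells. Control mice carried *R26* CreERt2 without floxed *Tbx5*, and tissue was collected a week after tamoxifen. Whether control mice also received tamoxifen is not given in the sources used here.

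The list held positions and annotation and no level for any library. The knockout was therefore not compared with the control at any locus here. The read depth and replicate error of a locus are unknown, and neither *Tbx5* loss nor the tissue label was checked against a transcript level. The number of rows equals the count of ncRNAs that the study describes as upregulated after *Tbx5* deletion, and the list is labelled up. The same label also carries the count of downregulated ncRNAs, and the header of the linked gene column a mark for down, which may describe the genes only. No direction is therefore given here for a locus or a gene. Loci are not replicates, and all values are descriptions beside the same value over the list.

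Striated muscle contracts when myosin of the thick filament pulls on actin of the thin filament, and troponin on the thin filament makes this depend on calcium. Thick filaments are joined at the M-band and thin filaments at the Z-disc, and myosin light chain kinases tune the force by phosphorylating the light chains of myosin. TBX5 is a T-box transcription factor that binds DNA at short sites and maintains heart rhythm in the adult atrium, and active enhancers are often transcribed into short RNAs without a poly(A) tail. Among the 6 genes, *Tnnt2* encodes cardiac troponin T, *Tnni1* the slow skeletal troponin I that is also made in the fetal heart, and *Mybpc3* the cardiac myosin-binding protein C. *Myom1* encodes myomesin, which cross-links thick filaments at the M-band, *Xirp2* an actin-binding Xin repeat protein of the intercalated disc and Z-disc, and *Mylk4* a member of the myosin light chain kinase family.

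Of the 14 loci, 2 overlapped an exon of the GENCODE annotation, and both exons belong to pseudogenes. These stretches are shown because a pseudogene copy can share sequence with its parent gene, and how uniquely reads place there was not tested. They are in lower case throughout, as none of the motifs described below was found in them. The first covers 13.1% of the *Mylk4* locus XLOC_015033, lies at chr13:32938513-32938691 on the minus strand and is the whole of *Gm11382*, an unprocessed pseudogene. The second covers 51.9% of the *Myom1* locus XLOC_023638, lies at chr17:70876193-70876312 on the plus strand and is the end of an exon of *Gm9320*, a transcribed processed pseudogene. Both are reference sequence of GRCm38, 179 and 120 bases long with 45.8% and 45.0% G and C.
XLOC_015033, *Gm11382* part: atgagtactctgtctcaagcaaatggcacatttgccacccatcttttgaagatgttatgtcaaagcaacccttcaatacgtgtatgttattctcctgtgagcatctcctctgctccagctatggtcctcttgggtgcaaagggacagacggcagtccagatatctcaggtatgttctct
XLOC_023638, *Gm9320* part: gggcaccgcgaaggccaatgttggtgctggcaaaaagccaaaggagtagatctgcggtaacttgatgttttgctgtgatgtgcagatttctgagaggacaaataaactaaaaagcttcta

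Start regions of member genes are shown next because the deleted factor binds T-box sites, and the upstream one of *Serpinb1c* because it lies beside the *Mylk4* loci. Each window runs from 250 bases before to 50 bases after a RefSeq start site of GRCm38.p6, on the strand of the gene. All 6 members matched at least 1 window, for 8 windows in all. Capitals mark matches on either strand to any of 4 motifs. The T-box core was searched as the letters AGGTGT, and a longer T-box site that contains this core was searched as well, with its last bases added, as AGGTGTGA. The site of GATA factors, which act beside TBX5 in heart muscle, was searched as AGATAA, and the site of MEF2 factors, which act in muscle, as TAAAAATA. The upstream start of *Serpinb1c* is at chr13:32940551-32940850 on the minus strand, and the last *Mylk4* locus ends 1354 bases from that start site. The *Mylk4* window is at chr13:32783915-32784214 on the minus strand, the *Xirp2* window at chr2:67445752-67446051 on the plus strand, and the first *Tnni1* window at chr1:135799171-135799470 on the plus strand.
*Serpinb1c*, upstream start: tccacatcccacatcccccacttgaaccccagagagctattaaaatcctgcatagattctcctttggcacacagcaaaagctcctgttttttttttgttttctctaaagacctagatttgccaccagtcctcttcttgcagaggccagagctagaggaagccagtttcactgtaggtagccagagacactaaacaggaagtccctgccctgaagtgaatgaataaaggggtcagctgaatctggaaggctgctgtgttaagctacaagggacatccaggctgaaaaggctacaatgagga
*Mylk4*: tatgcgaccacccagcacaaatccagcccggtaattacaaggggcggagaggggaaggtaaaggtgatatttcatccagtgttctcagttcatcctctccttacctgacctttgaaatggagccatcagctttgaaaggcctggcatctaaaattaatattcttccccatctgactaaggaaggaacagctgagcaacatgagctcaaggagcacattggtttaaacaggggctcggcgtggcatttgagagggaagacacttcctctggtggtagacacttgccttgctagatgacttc
*Xirp2*: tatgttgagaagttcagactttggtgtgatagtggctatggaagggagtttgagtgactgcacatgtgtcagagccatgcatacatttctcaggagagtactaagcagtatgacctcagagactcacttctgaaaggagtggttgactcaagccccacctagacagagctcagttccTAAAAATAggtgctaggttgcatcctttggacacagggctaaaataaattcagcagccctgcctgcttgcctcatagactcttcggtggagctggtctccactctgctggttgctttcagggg
*Tnni1*: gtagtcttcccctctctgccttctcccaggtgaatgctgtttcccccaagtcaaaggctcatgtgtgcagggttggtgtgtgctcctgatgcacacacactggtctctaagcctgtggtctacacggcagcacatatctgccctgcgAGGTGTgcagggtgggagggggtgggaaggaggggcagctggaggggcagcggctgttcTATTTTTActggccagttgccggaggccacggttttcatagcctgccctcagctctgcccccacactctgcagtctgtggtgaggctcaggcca

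The T-box core was found in 2 of the 8 member windows, both of *Tnni1* and overlapping each other, so they hold the same match, 103 bases before the first start. The same core occurs in 4514 of 32851 mouse windows of this length, or 13.7%. No member window held the longer T-box site, which occurs in 1.28% of all windows. The upstream *Serpinb1c* window held no match. A downstream *Serpinb1c* window, not shown, at chr13:32898091-32898390, held the T-box core 38 bases before its start on the reverse strand. A GATA site was found 115 bases before the start of *Myom1* and 166 bases before a start of *Tnnt2*, against a share of 11.2% over all windows. A MEF2 site was found in 3 member windows, against 2.72% of all windows. It lay 44 bases before the first start of *Tnni1* on the reverse strand, again in both windows, and 73 bases before *Xirp2* on the forward strand. The *Mylk4* and *Mybpc3* windows held none of these exact letters, which says nothing about factors elsewhere. Other forms of the same sites were not searched, so a window without a match may still hold one. A match is a run of letters and was not tested as a binding site. The windows of *Tnni1* and *Myom1* and the second window of *Tnnt2* sit at starts inside the GENCODE gene bodies. The *Mylk4* window sits at the GENCODE start, and the start of the longer RefSeq body, 22.8 kb farther upstream, was not searched.

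The loci were spread unevenly over the 6 genes. *Mylk4* had 9 loci, *Tnnt2* and *Tnni1* shared the same 2, and *Mybpc3*, *Myom1* and *Xirp2* had 1 each, which gave 16 pairs of locus and gene. By the linked column, *Mylk4* was linked to its 9 loci and *Xirp2* to its single locus, whereas *Tnnt2*, *Tnni1*, *Mybpc3* and *Myom1* appeared as neighbours only. Not being linked does not show that a gene was unchanged. An entry of any gene stood in the linked column for 12 of the 14 loci, against 25.8% of the whole list. The members were chosen partly through that column, so nothing is read from this difference. Of the 14 loci, 10 were linked to a member, 2 to another gene only and 2 to none.

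**Figure D1:**
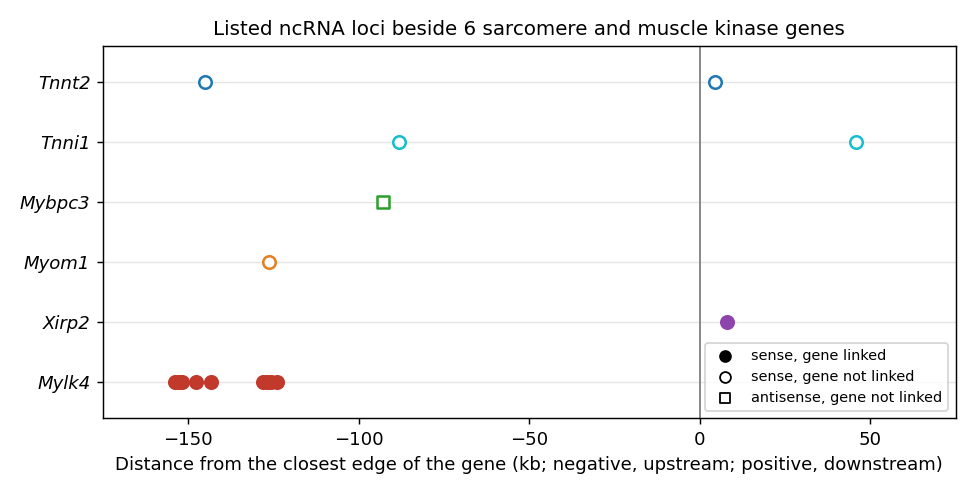
Distance in kb (x axis) from the closest edge of each gene (rows) to each of its listed loci, with upstream negative and downstream positive. Filled symbols mark pairs with the gene in the linked column and circles mark loci on the strand of the gene. The 9 *Mylk4* loci sit 124 to 154 kb upstream, and only the *Tnnt2* and *Xirp2* rows have a locus within 10 kb.

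Distance between closest edges had a median of 126.6 kb over the 16 member pairs (order-statistic 95% interval 88.2 to 148 kb), against 94.1 kb over the 6286 pairs of a listed locus and a coding neighbour gene. Without the 9 *Mylk4* pairs, the median was 88.2 kb over 7 pairs, so the greater distance came from *Mylk4*. Only 2 loci lay within 10 kb of a member, and 10 of 14 were over 100 kb from every member. The locus was upstream of the gene in 13 pairs and downstream in 3, and no locus lay inside a member gene. Of the 13 upstream pairs, 9 were *Mylk4* pairs. Without *Mylk4*, 4 pairs were upstream and 3 downstream. Over the 6286 coding neighbour pairs, 3279 were upstream, 2907 downstream and 100 inside the gene. The member was the closest of the listed genes in 12.5% of the pairs, against 22.2% of all coding neighbour pairs. It was so in 0 of the 9 *Mylk4* pairs, and without *Mylk4* the share was 28.6%, or 2 of 7 pairs. This share depends on how many genes a locus lists, with a median of 9 neighbours at member loci against 3 in the whole list. Locus and gene were on the same strand in 15 of 16 pairs, or 93.8% (95% Wilson interval 71.7 to 98.9%), against 56.0% (54.8 to 57.3%) of all coding neighbour pairs. As 9 of the 15 come from neighbouring loci beside *Mylk4*, the pairs are not independent. Without *Mylk4*, 6 of 7 pairs were in sense. These 7 pairs come from 5 loci, as the 2 loci beside *Tnnt2* and *Tnni1* are each counted for both genes. The strand used is the one listed for each locus, and 11 of the 14 loci are marked as transcribed from both strands. Wilson intervals here cover counting error only.

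The thin filament genes *Tnni1* and *Tnnt2* lie 25.4 kb apart on chromosome 1, both on the plus strand. *Tnni1* (ENSMUSG00000026418.16) spans chr1:135779434-135810989 and *Tnnt2* (ENSMUSG00000026414.13) spans chr1:135836354-135852260. One locus stood on each side of the pair, and both loci were on the plus strand. XLOC_001176, at chr1:135856691-135858293, began 4.43 kb downstream of the end of *Tnnt2*, its closest coding gene, and 20.3 kb from the *Tnnt2* start. It was 45.7 kb downstream of *Tnni1*, with *Lad1* and *Tnnt2* in between. This was the longest of the member loci, at 1603 bp, and longer than about 80.5% of the list. Its conservation score, the deposited mean phastCons value on a scale of 0 to 1, was 0.101, at the 59.9th percentile of scored loci. It overlapped no gene of either annotation and was not marked bidirectional, the deposited mark for loci transcribed from both strands. On its other side, *Pkp1*, which encodes a desmosomal plakophilin, ended 13.1 kb away on the opposite strand. Its linked gene was neither troponin gene but *Cacna1s*, the pore subunit of the skeletal muscle L-type calcium channel, which was the farthest of its 10 listed genes at 194 kb.

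XLOC_001167, upstream of both troponin genes at chr1:135691137-135691230, differed from it in length, score, mark and link. It was 94 bp long, marked bidirectional and had no linked gene. Its score of 0.00285 was the lowest of the member loci and at the 5.66th percentile of the list. It lay 88.2 kb upstream of *Tnni1* and 145 kb upstream of *Tnnt2*, in sense to both. *Csrp1*, which encodes a LIM domain protein, was the closest coding gene of GENCODE at 28.8 kb. *Csrp1* and *Phlda3* lay between the locus and *Tnni1*. *Tnnt2* was the farthest of the 6 listed genes of this locus, with 4 coding genes in between. GENCODE had no gene at the locus. RefSeq places it within *Gm32835*, a lncRNA gene at chr1:135688128-135691947 on the same strand, 3009 bp from the start of that gene. The coding gene *Nav1*, on the minus strand, lay 83.8 kb away in GENCODE. Its RefSeq body is longer, at chr1:135434580-135688350, and its 5′ edge is nearer to the locus than *Csrp1*.

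**Figure D2:**
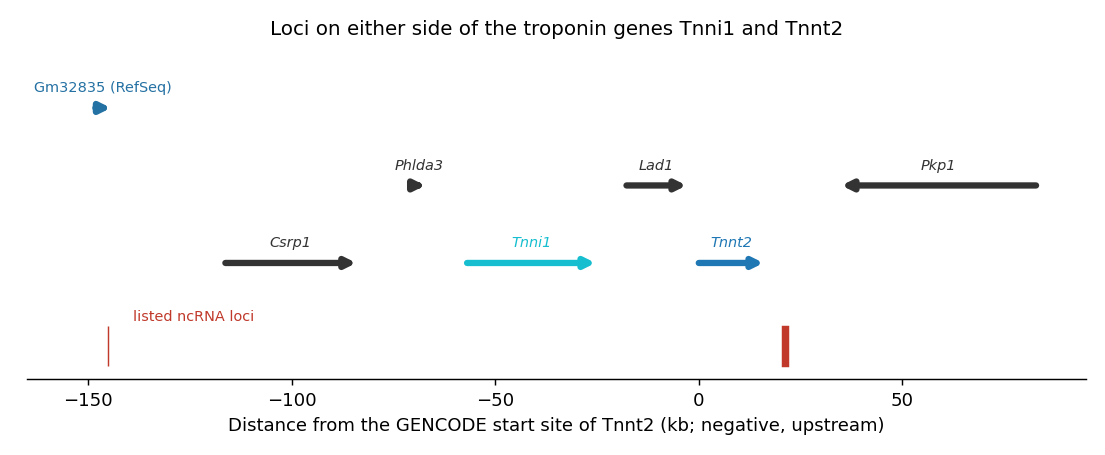
Position in kb from the *Tnnt2* start site (x axis) of the 2 listed loci (red) and the coding genes around *Tnni1* and *Tnnt2*, as arrows that point along transcription, with a RefSeq lncRNA gene in the top row. One locus lies 145 kb upstream of *Tnnt2* within *Gm32835*, and the other begins 4.43 kb past the *Tnnt2* end.

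The thick filament gene *Mybpc3* (ENSMUSG00000002100.15, chr2:91118144-91136516, plus strand) had 1 locus and was the only member with a locus on the opposite strand. XLOC_032510, at chr2:91025148-91025205 on the minus strand, lay 92.9 kb upstream. It was the shortest member locus, at 58 bp, near the 5.14th percentile of the list, with a score of 0.132 at the 70.1st percentile and no bidirectional mark. The surroundings were dense in genes, with 13 listed neighbours, of which *Mybpc3* was the 6th by distance. *Rapsn*, *Psmc3*, *Slc39a13* and *Spi1* lay in between, and the closest coding gene was *Celf1*, which encodes an RNA-binding protein, at 5.65 kb. The list linked this locus to 3 genes other than *Mybpc3*. These were *Rapsn*, which encodes a protein that clusters acetylcholine receptors, at 10.4 kb, *C1qtnf4* at 135 kb and *Nr1h3*, which encodes the oxysterol receptor LXR alpha, at 159 kb.

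The M-band gene *Myom1* (ENSMUSG00000024049.15, chr17:71002633-71126856, plus strand) also had 1 locus, XLOC_023638 at chr17:70876193-70876423 on the plus strand. It lay 126 kb upstream in sense, and *Myom1* was the farthest of its 5 listed genes. *Myl12b*, a gene for a regulatory light chain of nonmuscle and smooth muscle myosin, lay wholly in between. *Myl12a*, at 117 kb, was also nearer than *Myom1* and overlapped the *Myom1* start. *Tgif1*, which encodes a homeobox repressor, was closest at 22.6 kb. The locus was 231 bp long and marked bidirectional, with no linked gene. Its score of 0.391 was the highest of the 11 scored member loci, at the 92.1st percentile of the list. The stretch shown above, 51.9% of it, is exon sequence of the pseudogene *Gm9320*, and the locus also falls in an intron of the lincRNA gene *Gm26510* on the other strand. The score was not computed separately for the pseudogene part.

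The gene for the Z-disc and intercalated disc protein, *Xirp2* (ENSMUSG00000027022.13, chr2:67446002-67526614, plus strand), was the only member that was both the closest gene of its locus and linked to it. XLOC_029353, at chr2:67534513-67534709 on the plus strand, began 7.90 kb past the end of the gene and 88.5 kb from its start. It was 197 bp long, equal to the median of the list. Its score of 0.0453 was at the 36.4th percentile. It was not marked bidirectional and overlapped no gene of either annotation. The *Xirp2* and *Tnnt2* loci near the gene ends were thus alike in side, strand and the absence of the mark, and unlike in length and in whether the gene was linked.

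The kinase gene *Mylk4* (ENSMUSG00000044951.15, chr13:32700834-32783954, minus strand) held most of the member loci. Its 9 loci were on the minus strand, in sense, upstream, marked bidirectional and linked to *Mylk4* alone. They formed a group of 4 at chr13:32908008-32912294 and a group of 5 at chr13:32927212-32939246, separated by 14.9 kb. The other 7 gaps were between 0.755 and 4.36 kb. Together the loci spanned 31.2 kb and covered 3631 bp, or 11.6% of it. Coverage was 19.3% of the span in the group of 4 and 23.3% in the group of 5.

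In the group nearer *Mylk4*, XLOC_015010 at chr13:32908008-32908149 was 142 bp long with a score of 0.197, XLOC_015011 at chr13:32909799-32910185 was 387 bp, XLOC_015012 at chr13:32910942-32911076 was 135 bp and XLOC_015014 at chr13:32912132-32912294 was 163 bp with a score of 0.0253. XLOC_015011 and XLOC_015012 had no score. These 4 loci were 124, 126, 127 and 128 kb from *Mylk4*. In the farther group, XLOC_015021 at chr13:32927212-32927422 was 211 bp long with a score of 0.252, and XLOC_015024 at chr13:32931780-32932428 was 649 bp with no score. XLOC_015028 at chr13:32935684-32935946 was 263 bp long with a score of 0.0292, and XLOC_015030 at chr13:32936701-32937015 was 315 bp with a score of 0.0194. XLOC_015033 at chr13:32937881-32939246 was the longest at 1366 bp and scored 0.0729. These 5 loci were 143, 148, 152, 153 and 154 kb from *Mylk4*. Of the 9 loci, 6 were thus longer than the list median of 197 bp, and the highest and lowest scores of the 6 scored loci both stood in the farther group.

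*Mylk4* was far from being the closest gene. It was the 8th by distance of 9 listed genes at 5 loci and the 9th at the other 4. *Wrnip1*, *D930007J09Rik*, *Serpinb1a* and *Serpinb1c* lay between, the last pair being genes of clade B serpins, a family of intracellular protease inhibitors. Ranks and counts of genes in between, here and over the list, are by GENCODE. Over the 464 linked pairs of the list the median number of coding genes in between was 0 (quartiles 0 and 2), and 46 pairs, or 9.91%, had 4 or more, the 9 *Mylk4* pairs among them. The linked gene was the farthest listed gene in 30.4% of linked pairs. Of the 286 linked genes, 206 had 1 locus, and 3 genes, *Mylk4* included, had at least 9.

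Placement of the *Mylk4* loci differed between annotations. In GENCODE they lay in the 67.0 kb between *Serpinb1c* (chr13:32881434-32898211, minus strand) and *Serpinb6b* on the plus strand, and no other listed locus did. The first was 9.80 kb upstream of *Serpinb1c* and the last was 26.0 kb upstream of *Serpinb6b*. The closest coding gene was *Serpinb1c* for 5 loci and *Serpinb6b* for 4. In RefSeq the body of *Serpinb1c* runs 42.4 kb farther, over chr13:32881218-32940628, and held all 9 loci in sense, the last of them 1382 bp from the 5′ edge of that body. Transcription from the upstream *Serpinb1c* start shown above and separate noncoding transcription cannot be told apart from these positions. RefSeq also starts *Mylk4* 22.8 kb nearer to the loci, which puts them 101 to 131 kb away. The RefSeq *Mylk4* body overlaps *Wrnip1*, and *Serpinb1c* holds the loci, so fewer coding genes lie wholly in between than in GENCODE. A RefSeq pseudogene, *Gm18311* (chr13:32923221-32924494), lies in the 14.9 kb gap between the groups.

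**Figure D3:**
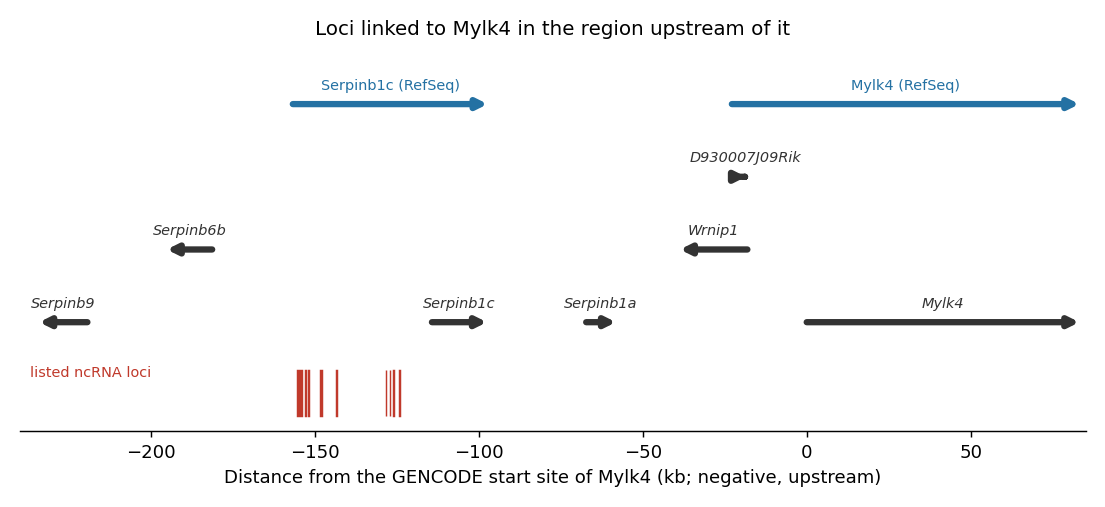
Position in kb from the GENCODE start site of *Mylk4* (x axis) of its 9 listed loci (red) and of coding genes, as arrows that point along transcription, with GENCODE in grey and RefSeq in blue. The loci form a group of 4 and a group of 5 between GENCODE *Serpinb1c* and *Serpinb6b*, within the longer RefSeq *Serpinb1c*.

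The bidirectional mark stood on 11 of the 14 member loci, or 78.6% (95% Wilson interval 52.4 to 92.4%), against 348 of 1489, or 23.4% (21.3 to 25.6%), of the whole list. By gene, the mark was on 9 of 9 *Mylk4* loci (70.1 to 100%) and on 2 of the other 5 loci, or 40.0% (11.8 to 76.9%). The *Mylk4* loci are neighbours and not independent, which the intervals do not take into account. In the list, 40 runs of same-strand loci with gaps up to 10 kb held 4 or more loci, of which 11 were marked throughout and 28 had no mark, so most large runs had a uniform mark of either kind. The mark did not come with a listed partner on the other strand. The list holds only distal ncRNAs that the authors selected. A transcript on the other strand outside that selection could not be seen here. The nearest listed locus on the opposite strand was at least 443 kb from any member locus and at least 1141 kb from any *Mylk4* locus. Of the 14 loci, 9 were both marked and without a deposited gene name.

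Lengths of the member loci ran from 58 to 1603 bp with a median of 221 bp (order-statistic 95% interval 135 to 649 bp), against 197 bp (185 to 207 bp) in the whole list. The *Mylk4* loci had a median of 263 bp and the other 5 of 197 bp. The median conservation score was 0.0729 over the 11 scored member loci (0.0194 to 0.252), against 0.0759 over 1264 scored loci of the list. It was 0.0511 over the 6 scored *Mylk4* loci and 0.101 over the other 5. Without the loci that touch an annotated exon or pseudogene, the median of the member loci was 0.0453. No score was given for 21.4% of the member loci, all beside *Mylk4*, against 15.1% of the list. The list share includes all loci with identifiers from XLOC_058534 upward, none of which had a score, so nothing is read from this difference. The medians of the list for length and score both fell within the wide intervals of the member loci. These intervals treat loci as independent, which the neighbouring *Mylk4* loci are not. The list gave no overlapping gene name for 85.7% of the member loci, against 86.4% of the whole list.

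**Figure D4:**
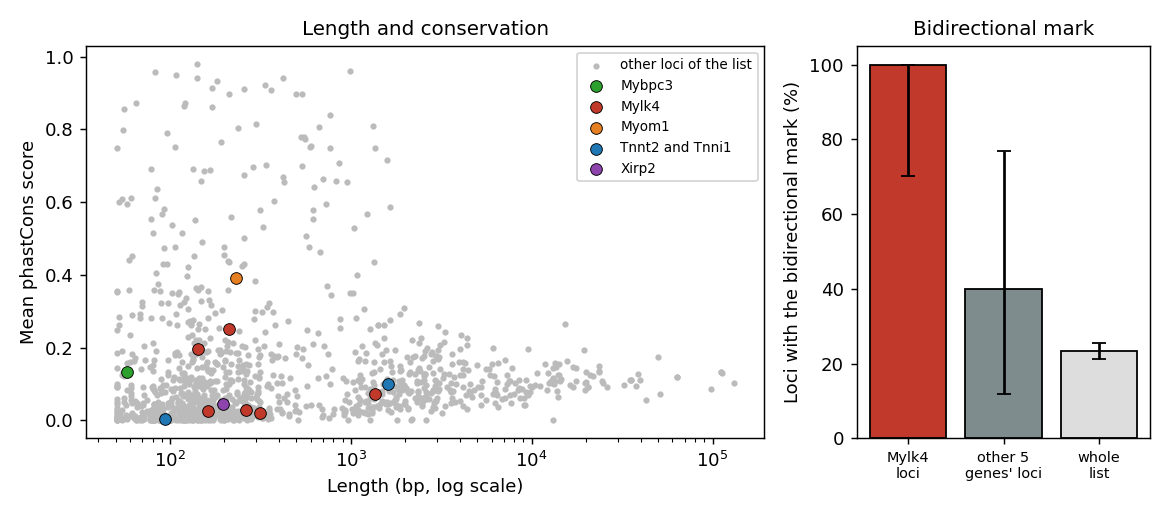
Left, length in bp (log axis) against the mean phastCons score for every scored locus, with the 11 scored member loci coloured by gene among the rest of the list (grey). Right, percent of loci with the bidirectional mark and 95% Wilson intervals, at 100% for *Mylk4*, 40.0% for the other 5 loci and 23.4% for the whole list.

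The 6 genes were set in a wider list of 68 sarcomere and muscle kinase genes that was written with them known. Of the 68, 12 were neighbours of a listed locus, or 17.6%, against 3839 of 21924 protein-coding genes, or 17.5%. The 6 members were taken because they are neighbours, so this share includes genes chosen for it. Of the other 62 genes, 6 were neighbours, or 9.68%. Leaving out genes known to be neighbours lowers this share, so nothing is read from either share. Linked genes were 5 of the 12, beside 7.42% of all coding neighbour genes, and nothing is read from that count as the members were partly chosen by it. By role, 2 of 12 thin filament genes, 1 of 8 thick filament genes and 2 of 5 M-band genes were neighbours, as were 3 of 19 Z-disc and intercalated disc genes, 2 of 18 kinases and 2 of 5 assembly genes. *Ttn*, which encodes titin, was not.

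Of the other 6 list genes that were neighbours, 5 are described here, and they differed in place and link. *Myom3*, which encodes a further M-band myomesin, was linked to 2 antisense loci 43.1 and 43.5 kb upstream. *Unc45b*, which encodes a myosin chaperone, was linked to 3 antisense loci 33.2, 81.8 and 84.7 kb downstream. Not linked were *Ankrd1*, whose product binds titin and responds to stress, with 4 sense loci 112 to 136 kb upstream, *Pdlim5*, a Z-disc gene, with a sense locus 13.3 kb downstream, and *Smyd1*, a gene for a muscle methyltransferase, with a sense locus 61.1 kb upstream. *Ankrd1* shared with *Mylk4* several distant sense loci upstream and differed from it in the linked column and in rank by distance. *Ankrd1* was the 1st or 2nd of 3 or 4 listed genes at its loci, and *Mylk4* the 8th or 9th of 9.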

How the data were processed

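Non-polyadenylated RNA of 7 left atrial libraries was sequenced by strand. Per the labels and methods, the authors used TopHat2 (2.0.10 and 2.0.13 in the submitters' processing notes) against mm10, assembled transcripts with Cufflinks, counted with featureCounts, tested genotype with DESeq and kept distal ncRNAs. The 2 deposited tables were identical and used once. Of 1490 rows, 1 was emptied for this work. The deposited conservation score is phastCons averaged by the authors over each locus, with unscored bases dropped. Positions are mm10 and 1-based. They were compared with GENCODE M21 (GRCm38), in which 3939 of 3959 gene symbols were found, and with RefSeq (GRCm38.p6). Same-strand loci with gaps up to 10 kb formed a run. All members and loci were named, with the closest coding gene, linked genes and any neighbour from the sarcomere list, of which 1 is not reported here. Members and lists were chosen with earlier results of these data known. Steps were tested on simulated data. Python 3.11.15, pandas 2.3.3, numpy 2.4.6, scipy 1.17.1 and matplotlib 3.10.9 were used. No sequence around each locus was used here, so the planned motif search at the loci was replaced by gene starts.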

Additional observations from a re-analysis of the deposited data

How the results depend on the processing

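Of 23 alternatives over 9 results, 16 moved the value by less than the chosen limits and 7 by more. The number of loci beside a member was 14, but 4 within 100 kb of the gene and 2 where the member was the closest coding gene. The median distance was 69.3 kb with only the closest locus of each gene, against 126.6 kb. The bidirectional share was 40.0% without the *Mylk4* loci, against 78.6%. A gap limit of 1 kb gave 11 runs, against 7. With RefSeq in place of GENCODE, an alternative chosen after seeing the data, 9 loci lay inside a coding gene, against 0, and 3 had no annotated gene, against 12. Each change follows from how the alternative counts. The alternatives on T-box letters at the loci were not run. No paired analysis was possible because the list holds no value per library. Depth and replicate error could not limit or support any value here, since neither is known.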
